A study of Mus musculus with 9 samples.

Results

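Notch1 null embryos were compared with every other array of a series of 9 Affymetrix expression arrays, each hybridised with RNA of whole mouse embryos at 9.5 days post coitum. The 2 Notch1 null arrays, chosen by their titles, carry a targeted Notch1 allele on both chromosomes (Notch1tm1Con/tm1Con). The other 7 arrays were pooled: 2 wild type (+/+), 1 Notch1 het (Notch1tm1Con/+), 2 Dll3 het (Dll3neo/+) and 2 Dll3 null (Dll3neo/neo). A strain, C57BL/6J, is named in the label of Notch1_null replicate 1 alone. All embryos share the age, the tissue and the RNA preparation, and no treatment is named. The labels do not tell whether replicates were single embryos, pools or separate litters, so each p-value reflects the spread of these 9 arrays only, some of which may be technical. The question was which transcripts differ in embryos without Notch1 in a way that does not rest on the wild type arrays.

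Notch1 is a transmembrane receptor. When a ligand of the Delta or Jagged family on a neighbouring cell binds it, its intracellular domain is cut free, enters the nucleus and, with the DNA-binding protein RBPJ, switches on genes such as the Hes and Hey repressors and Nrarp. In the mouse embryo this signal keeps neural progenitors from differentiating, sets arterial identity in vessels, acts in the developing heart and runs in the segmentation clock of the presomitic mesoderm, where the divergent ligand Dll3 also acts. Embryos without Notch1 die in midgestation with defects of the vessels. A second pathway recurs below: when oxygen is short, the transcription factor HIF escapes destruction by the Egln prolyl hydroxylases and induces glucose uptake, glycolysis, vessel growth factors and genes that restrain mitochondria and growth.

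Each value is a ratio to a constant of its own probe set, so values compare arrays and not genes, and they do not show whether a transcript was detected. For the same reason the tissue label could not be checked against the level of cell type markers. Over all probe sets the Notch1 null replicates correlated at 0.804, and null with other arrays at 0.426 to 0.587. Levels of Xist and Eif2s3y looked female in Notch1_null replicate 1, Notch1_het and the first replicate of each Dll3 group, while the remaining 5 arrays looked male, so the null arrays differed in sex. The dap control, a bacterial transcript, stood at ratios of 5.35 and 2.87 in null, 6.71 and 9.20 in wild type, 1 in Notch1 het and 0.444 to 0.468 in the 4 Dll3 arrays. The null arrays thus lay between wild type and the rest in this control.

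Of 22626 probe sets, 611 (2.7%) stood higher in Notch1 null than in the 7 other arrays and 889 (3.93%) stood lower, at an adjusted p under 0.05 (limma, Benjamini-Hochberg), together 6.63%. Among the 611, both null arrays stood above all 7 others at 608, and among the 889 both stood below all 7 at 886. A call from these same arrays favours such probe sets, so these counts largely restate the calls. Over all probe sets, without a test, both null arrays stood above the other 7 at 7.08% and below them at 11.3%. Large differences lay mostly on the higher side: with probe sets averaged per gene, 39 of 12393 genes were called and over 2-fold higher, and 8 were called and over 2-fold lower. The median difference over all genes was -0.04 on the log2 scale. Notch1_null replicate 1 lay further from the other arrays than replicate 2 at only 150 of the 611 and 361 of the 889. Without Notch1_null replicate 1 the counts were 270 and 220, without replicate 2 they were 66 and 48, without the Notch1_het array 1365 were lower, and without the 4 Dll3 arrays they were 71 and 40. With the dap level as a covariate 449 of the 611 and 705 of the 889 were called again, and with embryo sex as a covariate 514 and 719.

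When both wild type arrays were left out, Notch1 null differed from the remaining 5 arrays at 482 probe sets higher (2.13%) and 631 lower (2.79%). Of the calls against all 7 arrays, 434 of the 611 and 583 of the 889 were also called here. The highest genes by the same rule were Ddit4, Ier3, Vldlr, Adm and Pfkp, and the lowest were Fabp7, Gja4, Car3, Hsph1 and Hes5. All 10 are among the genes at the ends of the comparison with 7 arrays. Their differences without wild type ran from 2.89 for Ddit4 to -1.40 for Fabp7 on the log2 scale. Both comparisons share the null arrays and these 5 others, so the shared calls and genes are no independent support.

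The gene with the greatest difference was Ddit4, an inhibitor of the growth kinase mTORC1 that is induced by hypoxia and other stresses. Its ratio was 6.03 and 6.75 in the null arrays, against a lowest value of 0.495, a median of 0.991 and a highest of 1.31 in the other 7. The null arrays were both far above every other array, and the Notch1 het array was the lowest of all. The log2 difference was 2.85 ± 0.29 (SE, 2 against 7 arrays, adjusted p = 0.000334). Ier3, an early response gene induced by stress and HIF, had null ratios of 5.22 and 7.98 against 0.853, 0.945 and 1.03 (lowest, median and highest of the 7). The groups did not overlap, and the Notch1 het array, at 1.00, lay among the other genotypes. The difference was 2.76 ± 0.14 (adjusted p = 2.18e-06).

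Promoter windows are shown for Ddit4, Ier3 and Ero1a, which are HIF-induced genes among the 15 highest, because the core letters of the sequence that HIF binds, ACGTG, occur in them. The sequences are RefSeq promoters of build GRCm38.p6, 300 bases long from 250 before to 50 after the gene's start, written 5′ to 3′ on the gene's strand. Capitals mark ACGTG, or CACGT where it lies on the opposite strand. They cover chr10:59951721-59952020 on the minus strand for Ddit4, chr17:35821463-35821762 on the plus strand for Ier3 and chr14:45318523-45318822 on the minus strand for Ero1a.
Ddit4: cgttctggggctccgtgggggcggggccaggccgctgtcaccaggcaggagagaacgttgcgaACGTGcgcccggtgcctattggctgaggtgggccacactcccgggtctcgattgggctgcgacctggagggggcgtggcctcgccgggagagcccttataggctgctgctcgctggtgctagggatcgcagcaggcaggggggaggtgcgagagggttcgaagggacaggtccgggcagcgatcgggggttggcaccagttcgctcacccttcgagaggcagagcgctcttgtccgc
Ier3: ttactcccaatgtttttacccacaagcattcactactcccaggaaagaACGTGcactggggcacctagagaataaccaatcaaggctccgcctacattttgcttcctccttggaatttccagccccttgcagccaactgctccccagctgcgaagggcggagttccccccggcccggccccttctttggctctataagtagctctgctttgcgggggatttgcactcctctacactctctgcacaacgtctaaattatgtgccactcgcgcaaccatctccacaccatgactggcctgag
Ero1a: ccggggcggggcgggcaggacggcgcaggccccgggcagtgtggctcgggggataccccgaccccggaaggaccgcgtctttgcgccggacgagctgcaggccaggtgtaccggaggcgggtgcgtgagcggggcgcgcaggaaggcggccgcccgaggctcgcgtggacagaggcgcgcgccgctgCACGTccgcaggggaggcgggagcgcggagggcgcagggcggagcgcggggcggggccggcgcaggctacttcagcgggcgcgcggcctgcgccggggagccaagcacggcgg
Searched on both strands, ACGTG occurs in 6447 of 32851 RefSeq promoter windows (19.6%). Counted per gene over any of its windows, as for the lists, the share is 21.8% of all genes with a window. For the lists the counts of ACGTG follow. It occurs in 8 of the 10 called genes of the HIF-induced list that have a window in the table and in 11 of all 15 members that have one. For glycolytic enzymes it occurs in 6 of 10 called genes and in 11 of all 16. Both lists were drawn up from genes known as hypoxia-induced, so these shares describe the lists and are no independent support. The window of Pfkp holds no ACGTG.

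HIF-induced genes outside glycolysis had the highest median of the 29 gene lists examined. Of 19 measured, 13 were higher and 0 lower, where 3.31% of all genes were higher, and that median difference was 1.02 on the log2 scale. Bnip3, which triggers removal of mitochondria, had null ratios of 3.42 and 3.60 against 0.961, 0.982 and 1.01 (lowest, median and highest of the 7), and its difference of 1.83 ± 0.08 had the smallest adjusted p of the 15 highest genes (4.99e-07). The other 7 arrays were almost identical to each other at Bnip3. Bhlhe40, a hypoxia-induced repressor, had null ratios of 3.36 and 4.71 against 0.899 to 1.05, a difference of 2.03 ± 0.12 (adjusted p = 6.14e-06). Ero1a, the oxidase that forms disulphide bonds in the endoplasmic reticulum, had null ratios of 3.17 and 4.38 against 0.908 to 1.17, and the difference was 1.90 ± 0.13 (adjusted p = 1.31e-05). Ndrg1, a stress-induced growth suppressor, was higher at all 5 of its probe sets, by 1.71 ± 0.13 at the one named. In none of these genes did a null array overlap another array, which the choice of the 15 highest genes required. Averaged per gene, the histone demethylase Kdm3a was higher by 1.02 ± 0.08, the collagen prolyl hydroxylase P4ha2 by 1.55 ± 0.14, P4ha1 by 0.89 ± 0.16, the lysyl hydroxylase Plod2 by 1.03 ± 0.11 and the Myc antagonist Mxi1 by 0.70 ± 0.11. The count was 13 higher and 0 lower against the 5 arrays without wild type (2.7% of all genes higher), and likewise against wild type (3.76%), Notch1 het (1.13%), Dll3 het (3.64%) and Dll3 null (2.92%) alone. These comparisons share the null arrays.

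**Figure D1:**
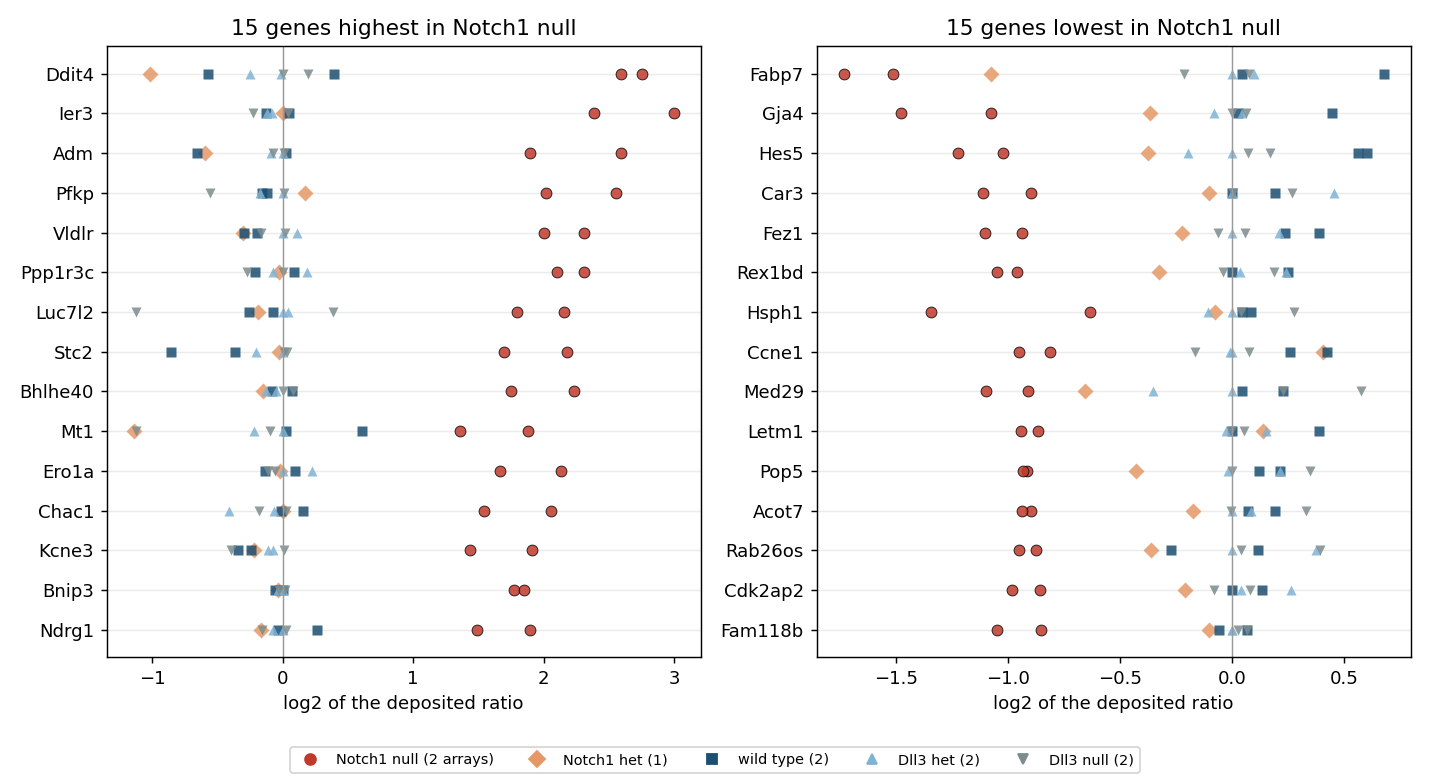
Log2 of the deposited ratio (x axis) for the 15 highest and the 15 lowest differences between Notch1 null and the 7 other arrays, 1 point per array. The null arrays stand clear of all others in both panels because the genes were chosen so, and by more in the left panel. In the right panel the single Notch1 het array is often the nearest to them, as at Fabp7 (ratio 0.475 against 0.301 and 0.351 in null).

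Of the prolyl hydroxylases that mark HIF for destruction, Egln3 and Egln1 are known to be induced by HIF themselves. Egln3 had null ratios of 2.57 and 3.37 against 0.876 to 1.05, higher by 1.62 ± 0.10 (adjusted p = 5.1e-06 in the fit per gene), and Egln1 was higher by 1.0 ± 0.15. Those were the 2 of 9 measured oxygen-sensing genes that passed (22.2%, against 3.31% of all genes higher). Egln2, which is not known as a hypoxia-induced gene, had a difference of -0.27 ± 0.08 (adjusted p = 0.0589). Without Notch1_null replicate 2, 1 of these 9 genes passed.

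Glycolytic enzymes followed the same pattern at smaller size: 10 of 16 measured were higher (62.5%, against 3.31% of all genes) and 0 lower. Their median was 0.53. Both null arrays stood above all others at 14 of the 16, against 7.32% of all genes. Pfkp, a phosphofructokinase, had null ratios of 4.04 and 5.88 against a highest value of 1.12 in the Notch1 het array, a difference of 2.40 ± 0.17 (adjusted p = 2.43e-05). Pdk1, which keeps pyruvate out of mitochondria, was higher by 1.44 ± 0.09 averaged per gene and the hexokinase Hk2 by 1.23 ± 0.09. The regulator Pfkfb3, Aldoc, Pgk1, Tpi1, Pfkl, Aldoa and Hk1 were higher by 0.51 to 0.90. The count remained 10 when wild type was left out and was 5 without Notch1_null replicate 2. Of 6 genes of glucose and acid transport, 4 were higher (66.7%, against 3.31% of all genes). Among them were the glucose transporters Slc2a3 (1.18 ± 0.21) and Slc2a1 (0.64 ± 0.11). At the lactate exporter Slc16a3 the Notch1 het ratio of 1.36 lay just below the null ratios of 1.39 and 1.92. The transport count was 2 without the wild type arrays, 2 under quantile normalization, 2 without Notch1_null replicate 1 and 0 without replicate 2, and the acid-handling enzyme Car9 did not pass (0.38 ± 0.16, adjusted p = 0.183).

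Some genes of glycogen handling and some secreted signals were also higher. Ppp1r3c, which brings a phosphatase to glycogen and so favours its synthesis, had null ratios of 4.29 and 4.95 against 0.828 to 1.14, a difference of 2.25 ± 0.12 (adjusted p = 3.62e-06). Averaged per gene, the phosphoglucomutase Pgm1 was higher by 1.5 ± 0.10, the glycogen phosphorylase Pygl by 1.20 ± 0.15 and the glycogen synthase Gys1 by 0.67 ± 0.10. That makes 4 of 10 glycogen genes higher (40%, against 3.31% of all genes) and 0 lower, while 6 did not pass. Both counts were the same without wild type. Genes of both synthesis and breakdown were thus among the higher ones. Adm, a vasodilator peptide needed for vessel and heart development, had null ratios of 3.71 and 6.01 against 0.634 to 1.02, a difference of 2.44 ± 0.22 (adjusted p = 0.00014). The vascular growth factor Vegfa was higher by 0.83 ± 0.09 and the peptide Apln by 0.50 ± 0.10. With Adm those were the 3 of 10 secreted hypoxia signals that passed (30%, against 3.31% of all genes higher), none being lower.

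Of 18 genes of amino acid and endoplasmic reticulum stress that the transcription factor ATF4 is known to regulate, 6 were higher (33.3%) and 0 lower. Over all genes 3.31% were higher, and the median difference of the list was 0.35. Chac1, which degrades glutathione, had null ratios of 2.92 and 4.15 against 0.753 to 1.11, a difference of 1.87 ± 0.15 (adjusted p = 6.05e-05). Vldlr, a lipoprotein and reelin receptor, had null ratios of 4.01 and 4.94 against 0.810 to 1.08 at the probe set named (2.27 ± 0.13), and 2 of its 4 probe sets passed. Stc2, a secreted glycoprotein also counted with the HIF-induced genes, was higher by 2.14 ± 0.22. Smaller differences passed for Shmt2 of serine metabolism (0.48 ± 0.09), the asparagine synthetase Asns (0.72 ± 0.16) and the stress factor Ddit3 (0.49 ± 0.14). The list's count was 6 without wild type and 3 without Notch1_null replicate 2. Of the 15 highest genes, Kcne3, a potassium channel subunit (1.87 ± 0.14), Luc7l2, a splicing factor relative (2.15 ± 0.28), and the metallothionein Mt1 (1.90 ± 0.38) stand outside these lists. Luc7l2 passed at 2 of 5 probe sets and lost its call without Notch1_null replicate 2 (adjusted p = 0.0656). Mt1 passed at 1 of 2 probe sets.

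Under quantile normalization, which forces all arrays to the same distribution of ratios, the 15 highest genes kept their calls with differences of 1.15 to 2.38 in place of 1.71 to 2.85. That setting moved 11 of them by over 1.5-fold. Ddit4 then stood at 2.25, Adm at 1.80, Pfkp at 1.68, Ppp1r3c at 1.52, Vldlr at 1.5, Stc2 at 1.46, Luc7l2 at 1.42, Bhlhe40 at 1.35, Chac1 at 1.25, Ero1a at 1.21 and Bnip3 at 1.20.

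**Figure D2:**
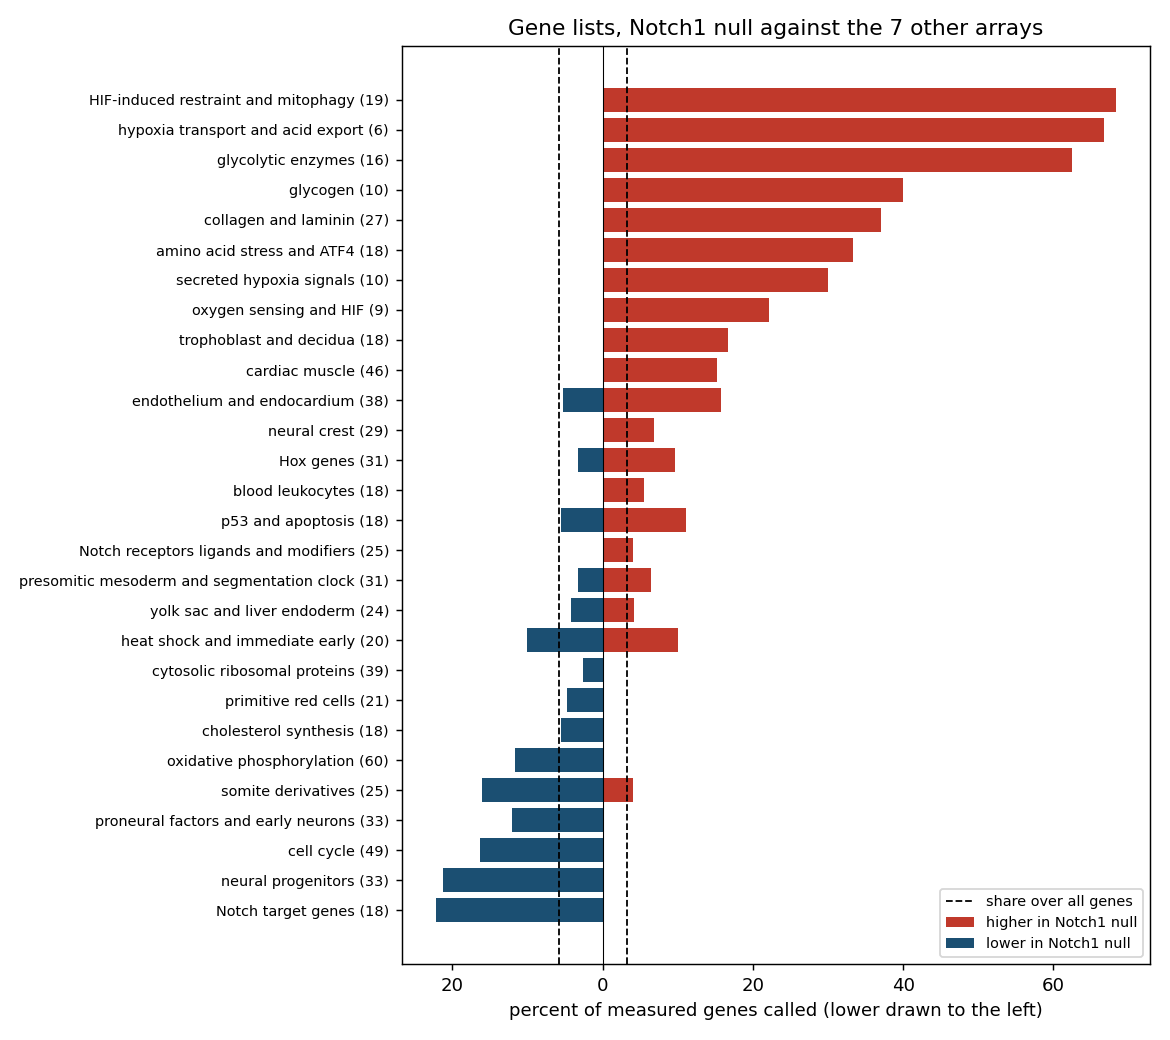
Percent of the measured genes of each list (number in brackets) that were called higher (right) or lower (left, drawn as bars away from 0) in Notch1 null than in the 7 other arrays. Dashed lines give the share of all genes, 3.31% higher and 5.79% lower. HIF-induced, transport and glycolytic genes have the longest bars to the right, and Notch targets and neural progenitors the longest to the left.

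Of 27 collagen, laminin and related matrix genes 10 were higher (37%, against 3.31% of all genes), 0 were lower and 17 did not pass, with a median of 0.28. Averaged per gene, the basement membrane genes Nid2 and Lamb1 were higher by 0.71 ± 0.10 and 0.68 ± 0.11, Col5a2 by 0.50 ± 0.09 and fibronectin, Fn1, by 0.90 ± 0.18. Fn1 had ratios of 1.65 and 1.65 in null and 1.33 in Notch1 het, with the remaining arrays below the het array. As a list mean, Notch1 het (0.10 on the log2 scale) came close to Notch1_null replicate 1 (0.14), while replicate 2 was at 0.41. Against the Notch1 het array alone 2 genes were higher and 1 lower, against a background of 1.32% lower. The count was 7 without wild type, 6 without Dll3_null replicate 1, 5 under quantile normalization and 0 without Notch1_null replicate 2.

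Of 38 endothelial and endocardial genes 6 were higher (15.8%, against 3.31% of all genes) and 2 lower (5.26%, close to the 5.79% of all genes lower). The higher ones were the SoxF transcription factors Sox17 (0.86 ± 0.09) and Sox18 (0.56 ± 0.10), the VEGF receptors Kdr (0.79 ± 0.16) and Flt1 (0.42 ± 0.11), the co-receptor Nrp1 (0.57 ± 0.15) and the guidance receptor Robo4 (0.32 ± 0.09). Gja4, which encodes connexin 37 of arterial endothelium, had null ratios of 0.359 and 0.475 against 0.777, 1.02 and 1.36 (lowest, median and highest of the 7). Both null arrays lay below every other array, as the choice of the lowest genes required. The lowest of the others was Notch1 het. The difference was -1.29 ± 0.17 (adjusted p = 0.00162). The sialomucin Emcn was lower by a log2 value of -0.45 ± 0.11. Dll4, the ligand of arterial endothelium, had differences of -0.10 ± 0.14 and -0.03 ± 0.10 at its probe sets, and neither passed. The count of 6 higher fell to 3 without Dll3_het replicate 2 or either Dll3_null array and to 1 without Notch1_null replicate 2. The count of 2 lower was 1 without either null array, and quantile normalization left 3 higher and 1 lower.

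In whole embryos, fewer cells of a type and less RNA per cell cannot be told apart, and this holds for every list of tissue markers here. Of 46 cardiac muscle genes 7 were higher (15.2%, against 3.31% of all genes) and 0 lower, with a median of 0.09. Ankrd1, a stretch- and stress-responsive gene of heart muscle, had null ratios of 1.98 and 2.09 against 0.812 to 1.11 (1.06 ± 0.11, adjusted p = 0.000203). The slow myosin heavy chain Myh7 was higher by 1.04 ± 0.11 and titin, Ttn, by 0.89 ± 0.13. Gata6, Actn2, Myl7 and Cox6a2 passed with 0.31 to 0.46. The other 39 cardiac genes, the bulk of the list, did not pass. The count was 4 without Dll3_null replicate 1, under quantile normalization or with the most variable probe set per gene, 3 without Notch1_null replicate 1 and 2 without replicate 2. The simple-epithelium keratins Krt19 (1.11 ± 0.10), Krt8 (0.62 ± 0.10) and Krt18 (0.51 ± 0.10) were the only 3 of 18 trophoblast and decidua genes to pass. That is 16.7% higher, against 3.31% of all genes.

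**Figure D3:**
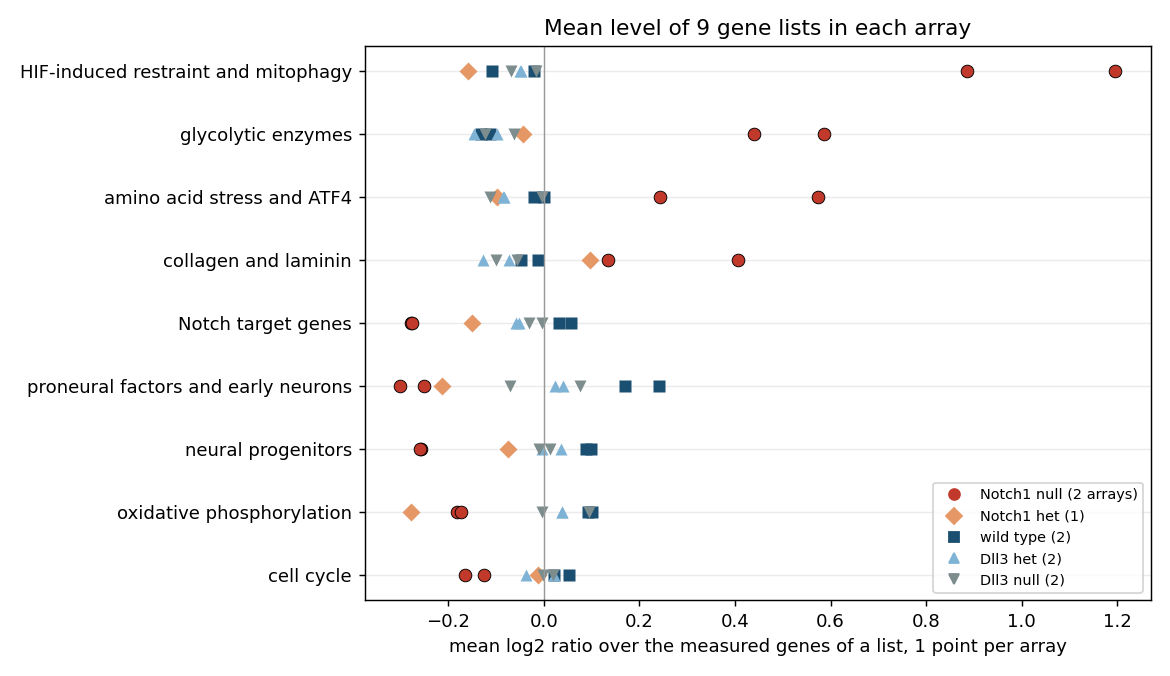
Mean log2 ratio over the measured genes of 9 lists (x axis), 1 point per array. HIF-induced genes stand at 0.89 and 1.19 in the null arrays and between -0.16 and -0.02 in all others. For early neurons and oxidative phosphorylation the Notch1 het array lies beside or below the null arrays.

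Notch1 transcript was higher in the arrays labelled null. At its first probe set the ratios were 1.47 and 1.69 in null against 0.752, 0.916 and 1.08 (lowest, median and highest of the 7), a difference of 0.77 ± 0.13 (adjusted p = 0.00575). At the second they were 1.31 and 1.74 against 0.602 to 1.06, a difference of 0.80 ± 0.21 (adjusted p = 0.0409). At both probe sets the null arrays lay above every other array and the Notch1 het array was the next highest. The second call was lost in 12 of 21 alternatives, among them the fit without wild type (adjusted p = 0.0548), and the first in 2. Where these probes lie with respect to the targeted part of Notch1 was not known here, and the transcript therefore does not check the label. Of 25 receptors, ligands and modifiers, Notch1 alone passed in the fit per gene (4% higher, near the 3.31% of all genes). The count was 0 without Notch1_null replicate 2, and without Notch1_het 2 were higher and 2 lower. The ligands Dll1 (-0.15 ± 0.10) and Dll3 (0.05 ± 0.13) did not pass. Lfng, which adds sugars to Notch receptors, was lower at 1 of its 2 probe sets (-0.43 ± 0.10, adjusted p = 0.0254) and did not pass when they were averaged (-0.35 ± 0.11).

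Among 18 Notch target genes 0 were higher and 4 lower (22.2%, against 5.79% of all genes), with a median of -0.18. Hes5, a repressor that keeps neural progenitors undifferentiated, had null ratios of 0.49 and 0.428 against 0.772 in Notch1 het, a median of 1.05 and a highest value of 1.52 in wild type. The order thus ran from null through het to wild type, with the Dll3 arrays between het and wild type. Hes5 was lower by a log2 value of -1.24 ± 0.22 (adjusted p = 0.00781), and by -1.06 without wild type (adjusted p = 0.00743). The 4 other genotypes differed among themselves at this probe set (F test, adjusted p = 0.0437). Nrarp, a feedback inhibitor of the pathway, was lower at 1 probe set (null ratios 0.708 and 0.694, others 0.945 to 1.19, -0.59 ± 0.10, adjusted p = 0.00563). At its other probe set the difference was -0.70 ± 0.25 with overlapping arrays (adjusted p = 0.13). Ccnd1, a cyclin also counted with the cell cycle genes, and Hes6 were lower by -0.51 ± 0.11 and -0.58 ± 0.15 per gene. With Hes5 and Nrarp they make up the 4 lower genes. Whether Notch1 regulates Ccnd1 or Hes6, directly or at all, was not tested. The count of 4 thus rests in part on their membership of the list.

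Calls at Heyl, Hes1, Hey1, Hey2 and Hes7 were fewer, and their difference from Hes5 was not tested. Heyl was lower at 1 of 3 probe sets (-0.48 ± 0.09, adjusted p = 0.00969) and stood at -0.25 and -0.02 at the others. Hes1 (-0.11 ± 0.10), Hey1 (-0.24 ± 0.13), Hey2 (0.06 ± 0.11) and the segmentation clock gene Hes7 (0.01 ± 0.11) did not pass. Id4, a partner of basic helix-loop-helix factors, had differences of -0.82, -0.60 and -0.43 at 3 probe sets and passed at none. At each of them the Notch1 het array lay below the null arrays or between them, and without that array 2 of the 3 passed. The count of lower targets was 5, with 1 higher, without the wild type arrays. Without wild_type replicate 1 alone, 1 was also higher. The lower count was 2 without Notch1_null replicate 1, 0 without replicate 2, 7 without Notch1_het and 0 against the Notch1 het array alone by limma, where 2 were lower and 1 higher at an unadjusted p under 0.05.

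The Hes5 promoter is shown because Hes5 is the Notch target with the greatest difference and holds the core letters TGGGAA of the sequence that RBPJ binds. It is the RefSeq window chr4:154960673-154960972 of GRCm38.p6 on the plus strand, and capitals mark TGGGAA, or TTCCCA where it lies on the opposite strand.
Hes5: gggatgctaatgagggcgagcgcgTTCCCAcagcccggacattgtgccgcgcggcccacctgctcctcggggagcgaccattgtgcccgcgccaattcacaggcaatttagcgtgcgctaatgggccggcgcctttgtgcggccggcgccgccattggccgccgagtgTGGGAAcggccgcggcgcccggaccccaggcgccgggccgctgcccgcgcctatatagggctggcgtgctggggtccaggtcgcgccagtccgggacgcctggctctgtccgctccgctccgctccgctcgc
The letters occur 2 times in this window and in 25.6% of all windows searched on both strands. Counted per gene over any of its windows, they occur in 28.3% of all genes with a window. They occur in 5 of the 10 Notch targets with a window in the table and in 1 of the 3 called ones. A match of so few letters is a description of the sequence and not a measured site.

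**Figure D4:**
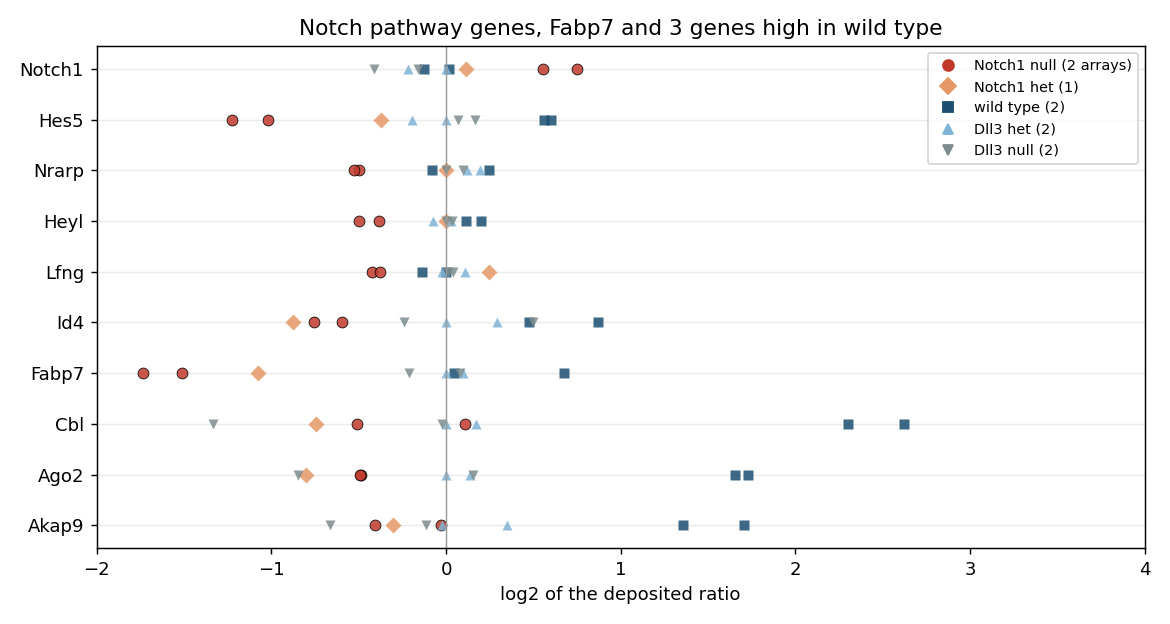
Log2 of the deposited ratio (x axis) at 1 probe set each of 6 Notch pathway genes and regulators, Fabp7 and 3 genes high in wild type, 1 point per array. At Hes5, Nrarp, Heyl and Lfng both null arrays lie below all others. At Id4 the Notch1 het array lies below them. At the probe sets shown of Cbl, Ago2 and Akap9, genes chosen for being high in wild type, wild type stands apart from all other arrays, null included.

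Of 33 neural progenitor genes 7 were lower (21.2%, against 5.79% of all genes), 0 were higher and 26 did not pass. The median was -0.19, and the count was 5 without wild type (4.17% of all genes lower). Fabp7, a fatty acid binding protein of radial glia, had null ratios of 0.301 and 0.351 against 0.475, 1.03 and 1.60 (lowest, median and highest of the 7). Both null arrays were the lowest, as the choice of the lowest genes required. Notch1 het was again the next, well below the remaining 6. The difference was -1.57 ± 0.31 (adjusted p = 0.0126), and against the Notch1 het array alone it was -0.55 (adjusted p = 0.28). The progenitor factor Sox3 was lower by -0.77 ± 0.10 per gene (adjusted p = 0.000758), with a Notch1 het ratio of 0.893 that was the lowest of the 7. Olig2, of motor neuron and oligodendrocyte progenitors, was lower by -0.81 ± 0.15, and its Notch1 het ratio was 0.995. Pax6, Sox1, Fzd3 and Msi1 passed with -0.52 to -0.37. The count was 4 under quantile normalization and 1 without Notch1_null replicate 2.

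Against the 7 arrays 4 of 33 proneural and early neuron genes were lower (12.1%, against 5.79% of all genes) and 0 higher, with a median of -0.26. These were the proneural factors Neurog2 (-0.75 ± 0.19) and Neurod1 (-0.52 ± 0.13), and Stmn3 (-0.79 ± 0.21) and the neuronal tubulin Tubb3 (-1.34 ± 0.38), both of the neuronal cytoskeleton. Without wild type 0 passed by limma, with 13 lower at an unadjusted p under 0.05, the median at -0.18 and adjusted p-values of 0.055 to 0.0603 for these 4 genes. The loss of calls therefore does not show that the difference is absent from that comparison. Against wild type alone 16 were lower (8.35% of all genes), against Dll3 het 10 (5.33%), against Dll3 null 8 (4.87%) and against Notch1 het 0, also at an unadjusted p under 0.05. Tubb3 had null ratios of 0.382 and 0.492, a Notch1 het ratio of 0.513 and a highest ratio of 2.08. The het array was next to the null arrays. Without it 12 of the 33 were lower, while calls over all genes in either direction rose from 1128 to 1642. Without either null array the count was 0, without wild_type replicate 2, Dll3_het replicate 1 or Dll3_null replicate 1 it was 1, and without Dll3_het replicate 2 it was 2. Quantile normalization also left 0 of the 4 calls, and a replicate block 2.

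**Figure D5:**
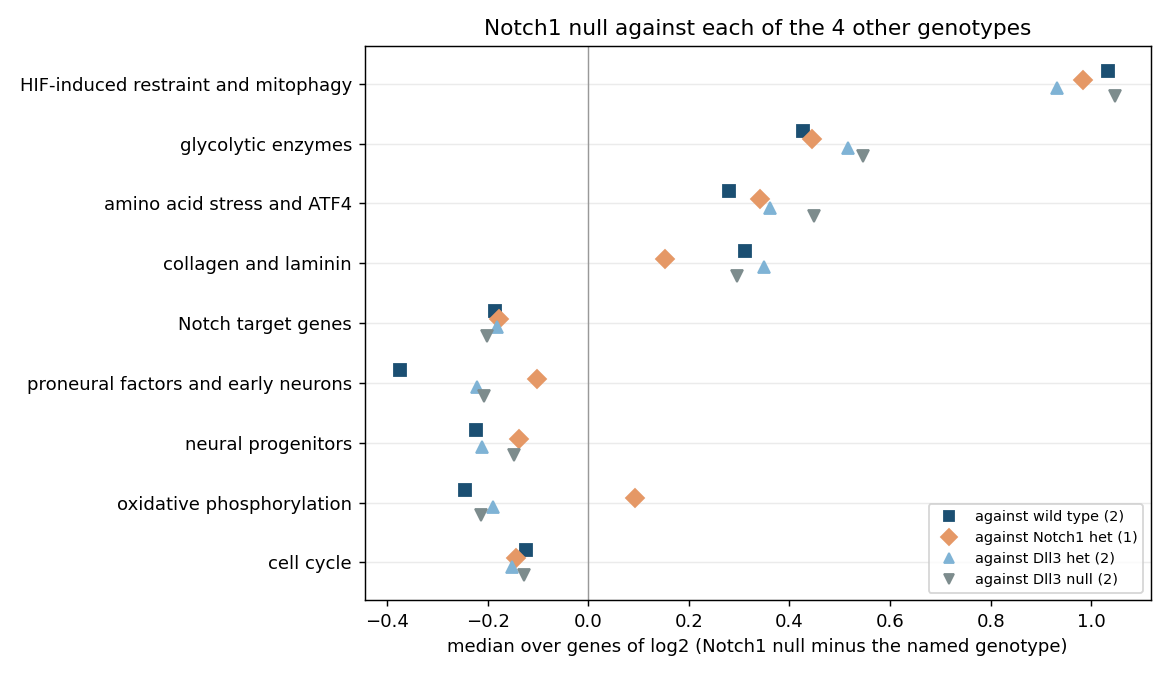
Median over the measured genes of 9 lists of the log2 difference between Notch1 null and each of the 4 other genotypes (x axis), 1 point per genotype, all sharing the null arrays. HIF-induced genes stand at 0.93 to 1.05 against every genotype, while early neuron genes range from -0.37 against wild type to -0.10 against Notch1 het and oxidative phosphorylation changes sign against Notch1 het.

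Among genes of somite derivatives 4 of 25 were lower (16%, against 5.79% of all genes) and 1 higher (4%, near the 3.31% of all genes). The sclerotome genes Pax1 (-0.76 ± 0.13, adjusted p = 0.00371) and Uncx (-0.91 ± 0.20), the retinoic acid synthase Aldh1a2 (-0.72 ± 0.20) and the myogenic lineage gene Meox2 (-0.59 ± 0.17) were lower, and the Wnt modulator Dact1 was higher (0.54 ± 0.08). At Pax1 the null ratios were 0.572 and 0.696 and the Notch1 het ratio was 1.22, so the het array did not lie toward null here. The higher count was 2 without wild type or without wild_type replicate 2 and 0 without Notch1_null replicate 2. The lower count was 2 without wild type, without wild_type replicate 2 or without Dll3_het replicate 1, 1 without Notch1_null replicate 2 and 0 without replicate 1, and it was 2 as well under median centring, quantile normalization, a replicate block or a sex covariate. Of 31 genes of the presomitic mesoderm and its clock 2 were higher (6.45%, against 3.31% of all genes) and 1 lower (3.23%, against 5.79%). Bmp4 (0.50 ± 0.11) and the retinoic acid degrading enzyme Cyp26a1 (0.45 ± 0.11) were higher and Nrarp was lower. The median over the 31 genes was 0.01. Of those, 1 was higher and 0 lower without Notch1_null replicate 1, 0 were higher or lower without replicate 2, and 2 were lower without Notch1_het.

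Of 49 cell cycle genes 8 were lower (16.3%, against 5.79% of all genes) and 0 higher, with a median of -0.13. Ccne1, the cyclin of entry into S phase, had null ratios of 0.569 and 0.518 against 0.892, 1.05 and 1.34 (lowest, median and highest of the 7). The null arrays were below all others, as the choice of the lowest genes required. The Notch1 het array, at 1.32, was among the highest. The difference was -1.02 ± 0.15 (adjusted p = 0.00304). The ribonucleotide reductase subunit Rrm2 (-0.55 ± 0.08), the replicative helicase subunit Mcm5 (-0.51 ± 0.09) and the thymidine kinase Tk1 (-0.53 ± 0.09) were lower per gene, and Ccnd1, Aurka, E2f1 and Pcna passed with -0.51 to -0.28. The count was 5 without wild type, and also 5 without wild_type replicate 1, either Dll3_het array or Dll3_null replicate 1, under median centring or quantile normalization, with a replicate block and with the most variable probe set per gene. It was 0 without Notch1_null replicate 2. Without Notch1_het 1 gene was higher.

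Of 60 oxidative phosphorylation genes 7 were lower (11.7%, against 5.79% of all genes) and 0 higher, with a median of -0.15. Cycs, cytochrome c, was lower by -0.73 ± 0.12 (adjusted p = 0.0034), the ATP synthase subunit gene Atp5g1 by -0.60 ± 0.12 and the complex I subunit gene Ndufs3 by -0.44 ± 0.09. The remaining 4, Cyc1, Ndufa5, Sdhb and Uqcrb, passed with -0.49 to -0.28. As a list mean the null arrays stood at -0.18 and -0.17 and the Notch1 het array below them at -0.28, and 0 passed against the Notch1 het array by limma, with 12 higher and 3 lower at an unadjusted p under 0.05. Over all 12393 genes, leaving out Notch1_het raised the calls in either direction from 1128 to 1642, and leaving out wild type gave 852. Against wild type 21 of the 60 genes were lower, where 8.35% of all genes were lower. The count was 19 without Notch1_het, 5 without wild type, 3 under quantile normalization, 1 without Notch1_null replicate 1 and 0 without replicate 2.

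The remaining genes at the lower end span several functions. Car3, a carbonic anhydrase, was lower by -1.12 ± 0.14 at 1 of 2 probe sets, and Fez1, an adaptor of axonal transport, by -1.11 ± 0.14. Hsph1, a chaperone of the heat shock system, was lower at both probe sets (-1.02 ± 0.16 and -1.0 ± 0.16), although at the first its null ratios differed, at 0.644 and 0.395. Letm1, an ion exchanger of the inner mitochondrial membrane, was lower by -1.0 ± 0.11 at 1 of 4 probe sets. Its other probe sets stood at 0.10, -0.08 and -0.01 and did not pass. The alternatives given below for Letm1 concern only the probe set that passed. Acot7, a thioesterase, had null ratios of 0.538 and 0.523 against 0.887 to 1.26 (-0.98 ± 0.12), and Fam118b of 0.554 and 0.484 against 0.931 to 1.05 (-0.95 ± 0.09, adjusted p = 0.000186). Rex1bd (-1.05 ± 0.14), Cdk2ap2 (-0.95 ± 0.12) and Rab26os, annotated as an opposite strand transcript of Rab26 (-0.95 ± 0.18), also passed. The RNase P subunit gene Pop5 passed at 1 of 2 probe sets (-0.99 ± 0.16), and its other probe set stood at 0.06. The Mediator subunit gene Med29 passed at 1 of 2 probe sets (-1.01 ± 0.25, adjusted p = 0.0314), lost its call in 9 of 21 alternatives and had a Notch1 het ratio of 0.634 near its null ratios of 0.533 and 0.468. Of the 15 lowest genes 3, Letm1, Acot7 and Fam118b, were called in each of 21 alternatives. Of the 15 highest, 13 were called in each alternative that gave them a value (20 for Kcne3 and 21 for the rest), and the other 2 were Luc7l2 and Mt1.

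The single Notch1 het array often stood nearest to null. Among the 889 lower probe sets it was the lowest of the 7 other arrays at 382 (43%), where it was lowest at 20.4% of all probe sets. Among the 611 higher ones it was the highest at 214 (35%), against 21% of all. Over the other arrays of the pool the shares at lower probe sets ran from 5.06% to 15.4%. Against the 6 remaining arrays, however, its median difference was -0.10 at the lower and 0.08 at the higher probe sets, where null had -0.54 and 0.62. Tested against it alone, null was higher at 193 probe sets (0.853%) and lower at 210 (0.928%). With a single array of this genotype, a feature of that array and of the genotype cannot be told apart.

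Cbl, Ago2 and Akap9 are given because an earlier analysis of these data found them high in wild type. Cbl, a ubiquitin ligase of receptor turnover, had ratios of 4.93 and 6.15 in wild type, 1.08 and 0.702 in null and 0.397 to 1.13 in the other 5 arrays. The null arrays lay among those 5, and the difference was -0.63 ± 0.86 against all 7 arrays (adjusted p = 0.795) and 0.18 without wild type. Ago2, of small RNA silencing, had wild type ratios of 3.31 and 3.15 and null ratios of 0.713 and 0.712, and Akap9, a scaffold at the centrosome, had 2.56 and 3.26 in wild type and 0.980 and 0.754 in null. Neither passed against the 7 arrays. At these probe sets of all 3 genes the 4 other genotypes differed among themselves (F test, adjusted p = 0.0291 each), as did 0.84% of all probe sets. The genes were chosen for that difference in these data, so the F test gives no independent support. With the dap level as a covariate the probe sets above were called lower in null, as was Ago2 with genotype means and the 7 arrays weighted equally. Cbl and Akap9 each have another probe set. There Cbl had ratios of 1.57 and 2.05 in wild type, above all other arrays (F test, adjusted p = 0.0754). Akap9 had 0.581 and 0.858 in wild type against 0.537 and 0.796 in Dll3 null (F test, adjusted p = 0.899), so wild type did not stand apart.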

How the data were processed

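Transcripts of whole embryos were measured on 9 Affymetrix arrays. The deposited values are linear ratios: RMA, a method of background correction, normalization and probe summary, is named per the submitters' processing notes, with no version. The median over the 9 arrays is exactly 1 at 19847 of 22690 probe sets and above 1 at none, so the authors appear to have divided each probe set by a number of its own, a step that no source used here states. Such a divisor keeps differences between arrays and removes absolute levels. The files' genome build was not given in the sources used here.

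Ratios were taken to log2 without a pseudocount, and 64 control probe sets were left out. Of 22626 tested probe sets, GEO's platform annotation gives 1 symbol to 20380 (12393 genes), several to 691 and none to 1555, and only the first kind is named. Columns not used numbered 0. Tests were limma 3.58.1 in R 4.3.3 (lmFit, eBayes). The main fit had a mean for null and a mean for the 7 others (7 residual degrees of freedom), so differences among the other genotypes count as spread. A fit with a mean per genotype (4 residual degrees of freedom) gave null against each genotype, where the lone Notch1 het array is assumed to vary like the rest. Benjamini-Hochberg adjustment was done per comparison, and an adjusted p under 0.05 is called higher or lower. Differences are log2, null minus others, and errors are standard errors of the fit. Lists were described by counts and medians over probe sets averaged per gene, with 686 of 786 listed genes in 29 lists measured, and no set test was run. An exact permutation test of 2 against 7 arrays cannot go below 0.0556 and was not used.

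The members and lists were chosen with earlier results of these data known. Genes named are the 15 highest and 15 lowest among probe sets called with both null arrays beyond all 7 others, 5 each way without wild type, the members of lowest p in each list, and a fixed set of Notch pathway, sex-linked and wild type-high genes. Where a list had other members called, they are named too. Promoters are RefSeq windows of GRCm38.p6, and chromosome 18 was left out of the motif search. The number of arrays limits the precision of every value. Alternatives were other pools, scalings, fits, covariates, thresholds and leaving out each array. The fits were tested on simulated data.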

Additional observations from a re-analysis of the deposited data

Results flagged for a closer look

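Among 62 named probe sets, the lowest and highest of the 7 pooled arrays were checked for a gap to the next array that is large for the range, and 2 stood out, where chance alone marks about 1 in 20 such groups. The 7 arrays hold 4 genotypes, so a distant array may differ by genotype. At the named probe set of Luc7l2, Dll3_null replicate 1 had the lowest ratio, 0.459, and the next lowest array stood at 0.837. At the second probe set of Hes5 the Notch1_het array had the lowest ratio, 0.66, and the next lowest stood at 0.979. The null ratios at that Hes5 probe set were 0.553 and 0.485.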

How the results depend on the processing

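No call at a named probe set turned direction in the alternatives run, while 11 of 62 named probe sets, 0 of them called, changed sign in some, among them Cbl, Hey2, Hes7, Dll3 and Xist. The 2 arrays in the null group limit every count. Without Notch1_het, 1642 of all 12393 genes were called in either direction, against 1128 with it. List counts without that array therefore have a higher background. Higher calls came to outnumber lower ones in some settings, such as without the Dll3 arrays or, against Notch1_het, under median centring (199 and 169). Of 611 higher and 889 lower probe sets against the 7 arrays, genotype means with the arrays weighted equally gave 987 and 1441, array weights 1117 and 1687, quantile normalization 287 and 348, no Dll3 arrays 71 and 40, an adjusted p under 0.01 225 and 265, and a further limit of 1.5-fold 332 and 309. Leaving out an array gave 66 to 888 higher and 48 to 1365 lower. Against the 5 arrays without wild type (482 and 631), quantile normalization gave 166 and 180, and leaving out an array 27 to 891 and 2 to 1267. Under quantile normalization the counts were 417 and 552 against wild type, 28 and 21 against Notch1_het, 383 and 396 against Dll3_het and 292 and 276 against Dll3_null. Leaving out an array gave 124 to 796 and 182 to 1356 against wild type, 15 to 178 and 7 to 163 against Notch1_het, 85 to 750 and 57 to 976 against Dll3_het, and 44 to 557 and 13 to 741 against Dll3_null. Of the genes of all lists (81 higher, 43 lower), quantile normalization left 19 lower and the fit without wild type 26, and leaving out an array gave 30 to 91 higher and 5 to 80 lower. Replicate numbers are not known to mark litters or batches, and the replicate differences correlated at -0.10 to 0.16 between groups. Number and sex pattern coincide in Notch1_null, Notch1_het and both Dll3 groups, though not in wild type. With a replicate block the counts were 513 and 700 against the 7 arrays, 308 and 375 against the 5, and 90 and 60 against Notch1_het. Against the 5 arrays embryo sex is the same split and gave the same 308 and 375. Fits that leave out a null array assume that the remaining one varies like the other arrays, and the cause of each move was not tested beyond the arrays removed.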

Other observations

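The following gene groups are given with the shares of all genes that were higher (3.31%) or lower (5.79%) in Notch1 null than in the 7 other arrays as their background. Among 31 Hox genes, which set position along the body axis, Hoxa5 (0.73 ± 0.11 on the log2 scale), Hoxa9 (0.55 ± 0.09) and Hoxc8 (0.56 ± 0.15) were higher and Hoxa2, which acts in the hindbrain, was lower (-0.43 ± 0.12), which makes 9.68% higher and 3.23% lower. Without Notch1_null replicate 2 none of the 3 passed, and the call of 1 lower gene was lost without Notch1_null replicate 1, wild_type replicate 2, either Dll3_het array or Dll3_null replicate 2. Among 29 neural crest genes the receptor Kit (0.69 ± 0.16) and the factor Tfap2a (0.42 ± 0.10) were higher (6.9%). Both calls were lost without either null array, and 2 genes were lower without Notch1_het. Of 21 genes of primitive red cells 0 were higher and Bpgm, the enzyme of 2,3-bisphosphoglycerate synthesis, was lower (-0.64 ± 0.09, adjusted p = 0.002 in the fit per gene). That call was lost without Notch1_null replicate 2, 1 gene was higher without replicate 1, and 2 were lower without Dll3_null replicate 2.

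Of 20 heat shock and immediate early genes, the immediate early factors Egr1 (null ratios 2.08 and 1.77, others 0.731 to 1.11, 1.04 ± 0.15) and Fos (0.65 ± 0.15) were higher, and the chaperones Hsph1 and Hspa8 (-0.49 ± 0.11) were lower, 10% each way. Each direction held 1 call without either null array, and 4 genes were lower without Notch1_het. Of 18 genes of p53 and apoptosis, Apaf1 (0.44 ± 0.09) and the p53 target Zmat3 (0.56 ± 0.14) were higher and Casp8 (-0.49 ± 0.11) was lower, 11.1% and 5.56%. Without Notch1_null replicate 2 neither direction held a call, without replicate 1 none was lower, and without Notch1_het 2 were lower. Of 24 yolk sac and liver endoderm genes Sox17, also an endothelial gene, was higher and Foxa2 lower (-0.44 ± 0.12). These are 4.17% each way. The lower count was 0 without Notch1_null replicate 2 or any of the wild type and Dll3 arrays, and without Notch1_het 2 were higher and 2 lower. Single calls were Fcer1g of 18 leukocyte genes (higher, 0.32 ± 0.09), Mvk of 18 cholesterol synthesis genes (lower, -0.33 ± 0.08) and Rpl41 of 39 ribosomal protein genes (lower, -0.32 ± 0.09), each lost without either null array. These are 5.56% higher, 5.56% lower and 2.56% lower. Of 4 sex-linked genes 0 passed by limma in either direction, and 0 had an unadjusted p under 0.05.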
